A study of Mus musculus with 68 samples.

Results

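The genes described here make cholesterol and fatty acids or control that synthesis through the sterol regulatory element binding proteins (SREBPs). They were chosen by name: 19 genes of sterol synthesis and transport, 8 of fatty acid synthesis and desaturation, and 5 regulators, 32 in all. Rows were found for 30 of the 32 by Ensembl identifier, among the 13197 genes of the founder tables and the 12803 genes of the F1 tables (13378 in either). Hmgcs1, which makes the precursor of mevalonate, and Mvd, which acts late in the mevalonate pathway, have no row and were not analysed here.

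RNA from 68 cultures of mouse embryonic fibroblasts (MEFs) was sequenced after 4 h with 2 ug/ml of tunicamycin (TM), which blocks N-glycosylation and so causes endoplasmic reticulum (ER) stress, or with DMSO alone as the control. The 40 founder libraries came from 8 strains: 129S1Sv/ImJ (129), A/J (A), C57BL/6J (B6), CAST/EiJ (CAST), NOD/ShiLtJ (NOD), NZO/H1LtJ (NZO), PWK/PhJ (PWK) and WSB/EiJ (WSB). The 28 F1 libraries came from crosses of a B6 mother with a father of 129, CAST, NOD, NZO or WSB, called x129, xCAST, xNOD, xNZO and xWSB. Each genotype and treatment had 2 or 3 libraries. Per the study's methods the MEFs of a genotype were pooled from female embryos of 1 litter, so the p-values below measure the spread between cultures of 1 preparation of cells. Values are the authors' normalised values, which are reads per gene scaled to a common library size and not divided by gene length, so levels are compared only within a gene and within the founder or the F1 set, whose tables list different genes. Changes are TM against control on the scale log2(value + 0.1).

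SREBP-1 and SREBP-2, the products of Srebf1 and Srebf2, are made as precursors in the ER membrane. Scap escorts them to the Golgi, where proteases release the part that enters the nucleus, and Insig1 and Insig2 hold Scap in the ER when sterols are plentiful. SREBP-2 mainly drives genes of cholesterol synthesis and uptake, and SREBP-1 mainly those of fatty acid synthesis. Fibroblasts make their own sterols and fatty acids, and the ER membrane in which TM acts also holds many of these enzymes. In bulk RNA, fewer cells of a type and less RNA per cell cannot be told apart.

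The promoters of 4 members are shown because they pair members that fell with TM, Fasn and Mvk, with members that were not called, Idi1 and Cyp51. They are RefSeq windows on GRCm38.p6 from 250 bases before to 50 bases after a start site, written 5′ to 3′ on the strand of the gene. Capitals mark CCAAT, the box bound by NF-Y, read on either strand.
Fasn, chr11:120824498-120824797, minus strand: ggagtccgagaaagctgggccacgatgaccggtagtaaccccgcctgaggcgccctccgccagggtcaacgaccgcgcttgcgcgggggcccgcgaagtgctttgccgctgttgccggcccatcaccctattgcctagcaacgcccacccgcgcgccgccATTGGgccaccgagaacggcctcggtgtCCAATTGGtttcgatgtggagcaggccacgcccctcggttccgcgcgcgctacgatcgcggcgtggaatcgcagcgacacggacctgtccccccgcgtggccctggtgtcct
Mvk, chr5:114444019-114444318, plus strand: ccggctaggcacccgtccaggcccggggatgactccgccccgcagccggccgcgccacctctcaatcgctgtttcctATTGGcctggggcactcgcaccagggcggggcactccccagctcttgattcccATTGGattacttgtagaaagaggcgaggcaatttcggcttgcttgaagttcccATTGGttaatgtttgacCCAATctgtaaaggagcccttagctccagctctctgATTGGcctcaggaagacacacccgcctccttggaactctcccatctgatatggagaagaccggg
Idi1, chr13:8885356-8885655, plus strand: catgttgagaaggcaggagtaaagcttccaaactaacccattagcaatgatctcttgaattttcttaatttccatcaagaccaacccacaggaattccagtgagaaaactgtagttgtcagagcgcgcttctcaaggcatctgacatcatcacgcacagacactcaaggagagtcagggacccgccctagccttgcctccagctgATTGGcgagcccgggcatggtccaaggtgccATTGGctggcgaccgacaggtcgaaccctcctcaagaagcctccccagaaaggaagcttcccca
Cyp51, chr5:4104648-4104947, minus strand: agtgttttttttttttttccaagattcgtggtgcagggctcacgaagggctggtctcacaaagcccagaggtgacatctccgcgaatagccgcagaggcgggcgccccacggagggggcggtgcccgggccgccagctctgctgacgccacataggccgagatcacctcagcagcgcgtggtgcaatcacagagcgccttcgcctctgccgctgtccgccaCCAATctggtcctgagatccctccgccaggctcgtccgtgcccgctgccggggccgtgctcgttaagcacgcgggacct
Windows were found for 25 of the 32 genes. CCAAT stood in 20 of these 25, against 41.1% of the 27025 genes with a window. By role it stood in 14 of 15 sterol genes, 2 of 5 fatty acid genes and 4 of 5 regulators. Among measured members it stood in 10 of the 15 that fell in the founder strains, such as Fasn and Mvk, and in 8 of the 8 that did not, such as Idi1 and Cyp51. Among sterol genes alone it stood in 6 of the 7 that fell and in 6 of the 6 that did not. All 5 fatty acid genes with a window fell, so role and call are not separated in the pooled counts. Matches on opposite strands can overlap, as at the pair of boxes nearest the start site of Fasn. The letters TCACNCCAC, a core of the sterol regulatory element, were found in 1 window, that of Hmgcs1, and in 1.44% of genes. The ER stress element, CCAAT and CCACG with 9 bases of any kind between, was in 0 of the 25 windows and in 0.137% of genes. A match is a description of these letters in this window only.

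Libraries on recovered reads held 7091923 to 21530282 reads on genes in the founder set and 6442976 to 29528457 in the F1 set. TM raised Hspa5, the main ER chaperone, by 2.82 ± 0.067 (SE) on the log2 scale as a mean over the founder strains, and Ddit3, which encodes CHOP, by 3.90 ± 0.091 (SE). All 10 fibroblast markers were present, with a summed value of 19939 to 54704 in founder controls and 16941 to 48548 with TM. Lum was low, with a median of 1.54 in the founder and 0.568 in the F1 libraries. Thy1 had a founder median of 331 and a lowest value of 1.38. The summed markers of myeloid, endothelial and epithelial cells reached at most 59.7, 18.7 and 132 in any library. The last of these was A control replicate 1, which also had the lowest control values of Fasn, Acaca, Elovl6, Scd1, Scd2 and Dhcr7 in A. Of the ER stress genes, its Hspa5, Ddit3 and Atf4 values were the highest of the A controls, and its Herpud1 and Xbp1 values the lowest. In A control replicates 1, 2 and 3, Hspa5 was 1587, 861 and 836 and Ddit3 was 68.7, 39.6 and 37.2. Herpud1 was 55.7, 64.8 and 62.2 there, and Xbp1 118, 120 and 125. With TM, Hspa5 was 7198, 7750.5 and 8816 in A. Without A control replicate 1 the mean changes over the strains were -0.91 for Dhcr7, -0.77 for Elovl6, -0.68 for Scd1 and -0.70 for Scd2, and the part of these markers was not tested. With any 1 founder library left out, the mean change ranged from -0.78 to -0.68 for Fasn and from -0.53 to -0.46 for Acaca.

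WSB control replicate 2 and xNOD control replicate 3 stood apart by markers of adipocytes, cells that also make much fatty acid. The 6 adipocyte markers found (Adipoq, Plin1, Fabp4, Cidec, Pparg and Cfd, of 7 listed) summed to 1184 in WSB control replicate 2, against 7.21 to 48.6 in the other 39 founder libraries. In xNOD control replicate 3 they summed to 683, against 8.09 to 25.8 in the other 27. Every one of the 6 was higher there than in the other controls of the genotype. Other markers were raised there too. WSB control replicate 2 had the highest endothelial sum of the founder libraries (17.9, against at most 12.2 in the others). In the F1 set xNOD control replicate 3 had the highest endothelial sum (18.7 against 10.4) and myeloid sum (18.4 against 15.3). The highest epithelial sums and the highest founder myeloid sum were in other libraries. Within the genotype, however, Krt8, Krt18 and Krt19 were higher in these 2 libraries than in the other controls. Krt8 was 23.9 in WSB control replicate 2 and 0.294 in replicate 3, and Krt18 was 18.1 and 4.56. In xNOD control replicate 3 Krt8 was 14.3, against 1.17 and 1.12 in replicates 1 and 2. Of the myeloid markers, Lyz2 was 15.1 and 1.18 in WSB control replicates 2 and 3, while Cd68 was 3.23 and 3.53. Adipoq, the adipocyte hormone adiponectin, was 98.8 in WSB control replicate 2 and 0.147 in replicate 3, and Plin1, a lipid droplet protein, was 83.5 and 0. Scd1, the desaturase that makes oleate, was 879.5 in the first of these and 135 in the second, and 574 in xNOD control replicate 3 against 98.2 and 104 in replicates 1 and 2. The part of these markers in the results was not tested, and values without these libraries stand beside the results they move most. Without WSB control replicate 2 the means over the strains lowered 19 members, and without xNOD control replicate 3 those over the crosses lowered 18, the same counts as with them.

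**Figure D1:**
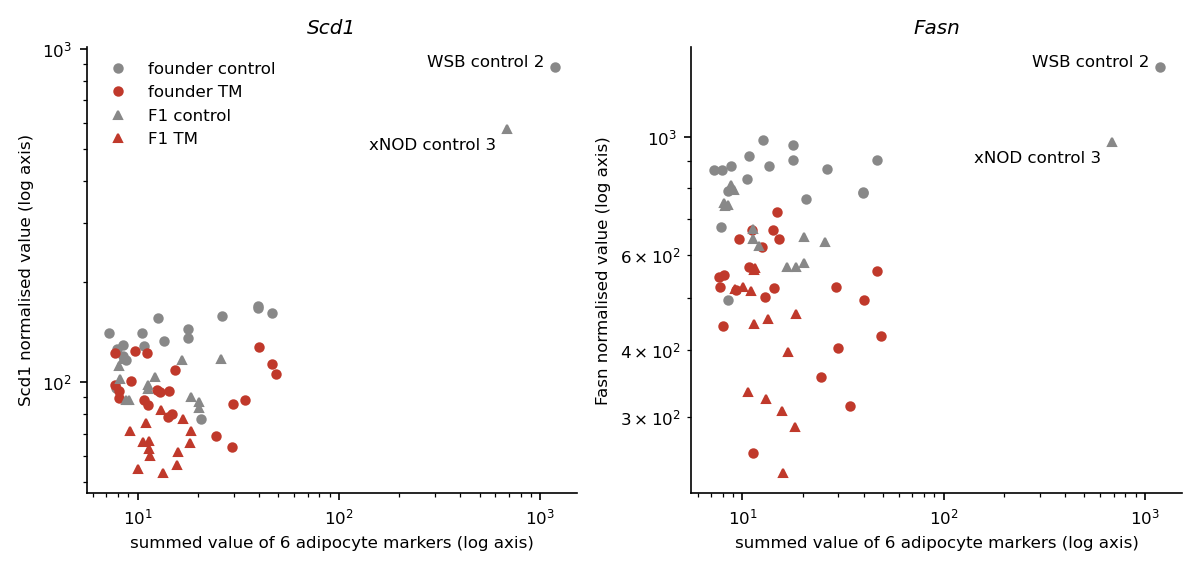
Each point is 1 library, with the summed normalised value of 6 adipocyte markers on a log x axis and the normalised value of Scd1 (left) or Fasn (right) on a log y axis, founder libraries as circles, F1 libraries as triangles, controls in grey and TM in red. WSB control replicate 2 (marker sum 1184, Scd1 879.5) and xNOD control replicate 3 (683 and 574) lie apart from the other libraries.

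TM lowered all 8 fatty acid genes, 3 of 5 regulators and 8 of 17 sterol genes in the founder strains. As a mean over the 8 founder strains, 19 of 30 members fell and 1 rose at an adjusted p below 0.01 (limma, adjusted over all genes), where 21.9% of all genes tested fell and 20.5% rose. All 30 passed the filter on low values. Over the 5 F1 crosses 18 of 30 fell, where 18.7% of genes did. All 18 were among the 19 of the founder strains, and the other, Tm7sf2, had an adjusted p of 0.0149 in the crosses by limma. None rose over the crosses by limma or by edgeR on recovered reads, where 16.9% of all genes rose by limma. A rise at an unadjusted p below 0.05 was seen for 0 and 2 members, and the share of all genes at that threshold is not given here.

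**Figure D2:**
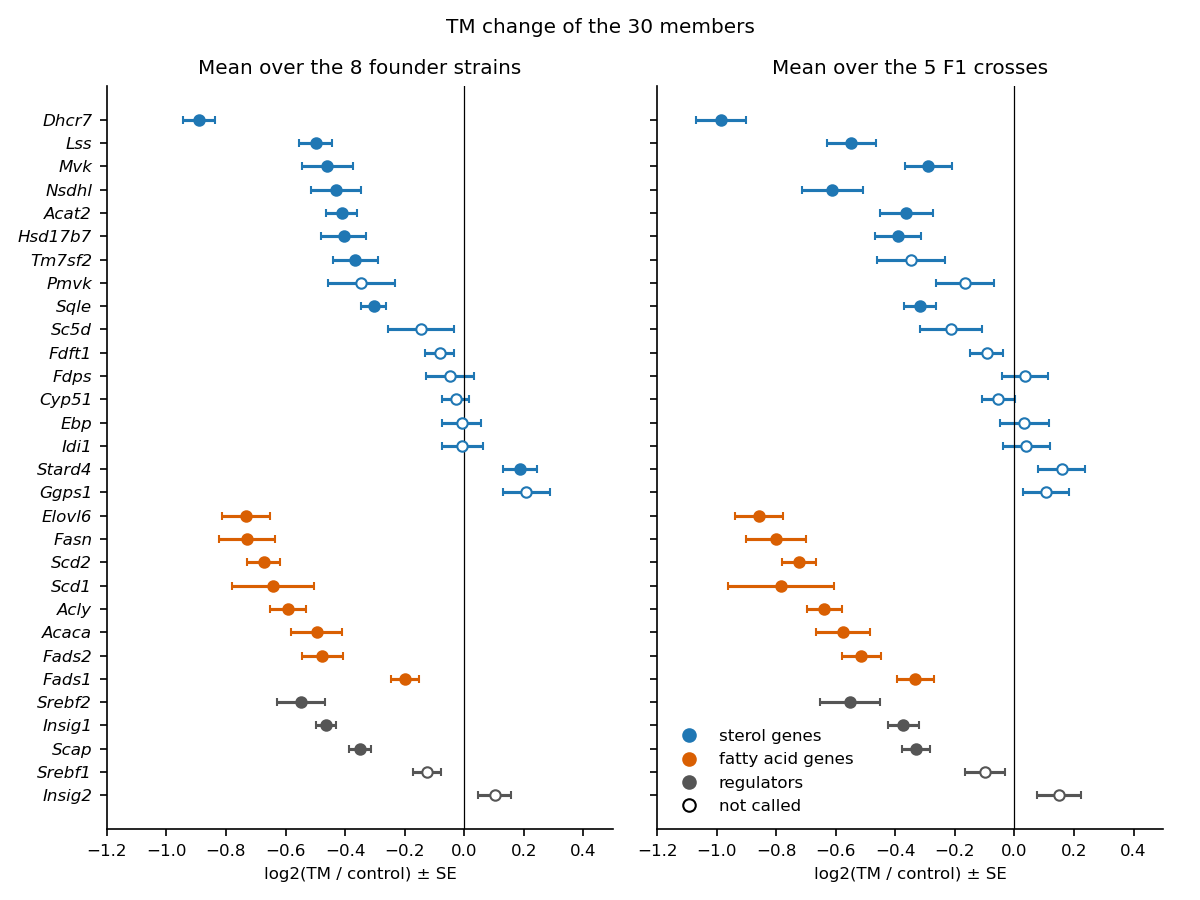
Mean log2(TM / control) of each of the 30 members over the 8 founder strains (left) and the 5 F1 crosses (right), with bars of 1 SE, sterol genes in blue, fatty acid genes in orange, regulators in grey, and open circles for members not called at an adjusted p below 0.01. All 8 fatty acid genes lie left of 0 in both panels, and the sterol genes run from Dhcr7 (-0.89 and -0.98) to the right of 0.

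The median change of the fatty acid genes was -0.62 over the founder strains and that of the sterol genes -0.30, beside -0.037 over all genes tested. In the F1 crosses the medians were -0.68 for fatty acid genes, -0.21 for sterol genes and -0.040 for all genes. The fatty acid median was below the sterol median in 8 of 8 strains and 5 of 5 crosses, by 0.014 in NOD, the closest, and by 0.96 in xNOD, the widest. The widest gap among strains, 0.89, was in WSB. Without WSB control replicate 2 the WSB gap was 0.55 and the founder fatty acid median -0.54. Without xNOD control replicate 3 the xNOD gap was 0.82 and the F1 fatty acid median -0.62. These medians describe the lists and carry no test.

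Among the fatty acid genes, Fasn (fatty acid synthase, which builds palmitate, ENSMUSG00000025153, GRCm38 chr11:120805846-120824547, minus strand) fell most together with Elovl6. Control libraries, in order of replicate number, had Fasn values of 792 and 867 in 129, 764, 962 and 986 in A, 879.9 and 919 in B6, 676 and 879 in CAST, 494 and 866 in NOD, 870.2 and 834 in NZO, 902, 784 and 786 in PWK and 1347 and 904 in WSB. TM libraries had 256, 442 and 545 in 129, 645, 355 and 724 in A, 621 and 521 in B6, 501 and 569.6 in CAST, 523, 517 and 552 in NOD, 644, 669 and 669 in NZO, 424, 496 and 561 in PWK and 314, 404 and 524 in WSB. All TM values lay below all control values in 7 of the 8 strains, and in NOD the controls (494 and 866) spanned the TM values. The mean change was -0.73 ± 0.095 (SE) at an adjusted p of 1.79e-07 by limma, with a range over strains of -1.45 in WSB to -0.30 in NOD. Without WSB control replicate 2 the mean was -0.69. In the crosses, controls had 571 to 977 (median 660.3) and TM libraries 235 to 569 (median 451), a mean change of -0.80 (-0.76 without xNOD control replicate 3), and TM lay below control in every library of all 5.

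Elovl6 encodes the enzyme that lengthens palmitate to stearate (ENSMUSG00000041220, GRCm38 chr3:129532355-129638495, plus strand). Its control values were 27.0 and 32.8 in 129, 20.5, 35.1 and 36.4 in A, 41.8 and 33.5 in B6, 32.2 and 43.2 in CAST, 30.9 and 31.97 in NOD, 32.1 and 31.2 in NZO, 49.6, 57.5 and 59.4 in PWK and 31.4 and 33.2 in WSB. With TM they were 14.7, 19.9 and 24.5 in 129, 21.2, 15.4 and 17.7 in A, 22.7 and 20.9 in B6, 30.2 and 28.3 in CAST, 20.2, 21.4 and 19.6 in NOD, 22.8, 23.7 and 14.2 in NZO, 27.2, 32.8 and 34.1 in PWK and 14.3, 15.8 and 10.8 in WSB. The groups overlapped in A, through control replicate 1 (20.5), and in none of the other strains. The mean change was -0.73 ± 0.081 (SE) at a limma adjusted p of 8.30e-09, and -0.86 in the crosses. Scd1 and Scd2, neighbouring paralogs on chromosome 19 that place the first double bond in fatty acids, may share reads, so their split is uncertain. Scd1 controls read 129 and 140.4 in 129, 77.2, 144 and 155 in A, 133 and 128 in B6, 96.0 and 116 in CAST, 119.9 and 125 in NOD, 157 and 140.4 in NZO, 161, 169 and 167 in PWK and 879.5 and 135 in WSB. Scd1 with TM read 85.3, 94.1 and 122 in 129, 108, 68.8 and 80.0 in A, 94.4 and 93.7 in B6, 93.1 and 88.2 in CAST, 97.7, 101 and 89.7 in NOD, 124, 122 and 78.3 in NZO, 106, 128 and 113 in PWK and 88.5, 85.6 and 63.9 in WSB. Scd1 changed by a mean of -0.64 ± 0.14 (SE) (limma adjusted p 0.000251), and by -0.47 (adjusted p 1.91e-05) without WSB control replicate 2. Within WSB its change was -2.13 with that library and -0.79 without it. In the crosses the mean was -0.78, and -0.62 without xNOD control replicate 3.

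Scd2 was lower with TM in every library of every genotype. Scd2 stood in controls at 468 and 468 in 129, 322, 493 and 495 in A, 478 and 457 in B6, 312 and 373 in CAST, 318 and 358 in NOD, 573 and 555 in NZO, 524, 566 and 558 in PWK and 421 and 442 in WSB. With TM it stood at 274, 294 and 364 in 129, 277, 216 and 229 in A, 305 and 299.8 in B6, 242 and 234 in CAST, 229, 238 and 207 in NOD, 409.6, 417 and 292 in NZO, 295, 341 and 301 in PWK and 262, 268 and 228 in WSB. TM and control libraries did not overlap in any of the 8 strains or 5 crosses, and the strain changes lay between -0.84 and -0.52. The mean was -0.67 ± 0.056 (SE) (limma adjusted p 2.98e-11). Acaca encodes acetyl-CoA carboxylase, which makes malonyl-CoA for Fasn. Its control values ran 81.4 and 95.8 in 129, 75.1, 112 and 112 in A, 112 and 112 in B6, 100.4 and 132 in CAST, 72.5 and 102 in NOD, 104 and 93.3 in NZO, 123, 123 and 128 in PWK and 157 and 117 in WSB. Its TM values ran 39.8, 58.2 and 78.7 in 129, 96.7, 46.6 and 76.1 in A, 83.6 and 79.2 in B6, 92.6 and 107 in CAST, 71.2, 78.8 and 76.6 in NOD, 84.3, 87.7 and 65.3 in NZO, 79.5, 97.1 and 107 in PWK and 49.96, 62.3 and 59.99 in WSB. TM fell below control throughout in 5 of 8 strains, and the mean change was -0.50 ± 0.086 (SE) (limma adjusted p 1.71e-05), or -0.47 without WSB control replicate 2. WSB changed most, by -1.25 with and -1.04 without control replicate 2, in which Acaca was 157 against 117 in replicate 3.

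The remaining 3 fatty acid genes also fell. Acly, ATP citrate lyase, supplies cytosolic acetyl-CoA for both pathways and changed by a mean of -0.59 in the strains and -0.64 in the crosses, with no overlap of TM and control in any of the 13 genotypes. Fads2 and Fads1, neighbouring genes for the desaturases of polyunsaturated fatty acids, changed by -0.48 and -0.20 in the strains and by -0.51 and -0.33 in the crosses. Fads1 had the smallest change of the 8, from -0.26 to -0.090 by strain.

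Dhcr7 changed most among all 30 members. It encodes the reductase of a last step of cholesterol synthesis (ENSMUSG00000058454, GRCm38 chr7:143823145-143848410, plus strand). Control libraries had Dhcr7 values of 25.5 and 24.6 in 129, 13.2, 18.5 and 20.3 in A, 19.7 and 18.5 in B6, 34.8 and 49.8 in CAST, 19.0 and 19.6 in NOD, 21.1 and 21.2 in NZO, 75.2, 67.0 and 65.0 in PWK and 13.6 and 14.9 in WSB. TM libraries had 12.8, 15.5 and 13.7 in 129, 9.54, 7.53 and 8.76 in A, 10.5 and 10.6 in B6, 20.0 and 22.5 in CAST, 11.2, 11.3 and 11.6 in NOD, 12.5, 11.2 and 10.4 in NZO, 33.7, 37.7 and 33.0 in PWK and 8.04, 7.65 and 8.10 in WSB. Every TM library was below every control of its genotype, in 8 of 8 strains and 5 of 5 crosses. The mean change was -0.89 ± 0.053 (SE), a level 46.1% lower (limma adjusted p 1.42e-14), within a narrow range by strain of -0.99 to -0.76. Over the crosses it was -0.98 ± 0.083 (SE), with values of 12.2 to 35.7 (median 14.02) in controls and 3.98 to 15.3 (median 8.17) with TM.

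Of the enzymes that act on squalene and lanosterol, Lss (lanosterol synthase, which closes the sterol rings) and Sqle (squalene epoxidase, a rate-limiting step) fell. Lss controls had 65.7 and 70.0 in 129, 77.8, 76.3 and 80.3 in A, 75.2 and 68.0 in B6, 35.2 and 38.7 in CAST, 44.2 and 58.6 in NOD, 67.2 and 72.8 in NZO, 89.1, 80.0 and 79.4 in PWK and 43.8 and 48.8 in WSB. Lss with TM had 42.1, 47.0 and 48.5 in 129, 55.5, 36.9 and 64.0 in A, 60.8 and 53.8 in B6, 24.1 and 25.4 in CAST, 43.4, 43.6 and 41.8 in NOD, 52.4, 46.6 and 59.2 in NZO, 47.0, 54.0 and 57.2 in PWK and 27.8, 29.6 and 35.1 in WSB. TM lay below control for Lss in all 8 strains, with a mean change of -0.50 ± 0.056 (SE) (limma adjusted p 1.17e-08). Sqle controls had 130.02 and 126 in 129, 133, 127 and 135 in A, 117 and 113 in B6, 89.7 and 83.6 in CAST, 107 and 103 in NOD, 112 and 109 in NZO, 140.2, 149 and 152 in PWK and 96.3 and 116 in WSB. Sqle with TM had 103, 112 and 113 in 129, 99.7, 97.0 and 82.8 in A, 102 and 97.4 in B6, 69.4 and 62.4 in CAST, 84.1, 82.8 and 72.4 in NOD, 101, 102 and 85.2 in NZO, 129, 128 and 114 in PWK and 98.3, 98.0 and 73.5 in WSB. Sqle TM values lay below control in 7 of 8 strains, all but WSB, and the mean was -0.30 ± 0.042 (SE) (adjusted p 5.15e-07). Their means over the crosses were -0.55 and -0.32.

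The other sterol genes that fell over the strains were Mvk, mevalonate kinase (-0.46), Nsdhl, a sterol dehydrogenase (-0.43), Acat2, the cytosolic thiolase that starts the pathway (-0.41), Hsd17b7, a sterol ketone reductase (-0.40), and Tm7sf2, a sterol reductase (-0.37). Over the crosses these values were -0.29 for Mvk, -0.61 for Nsdhl, -0.36 for Acat2, -0.39 for Hsd17b7 and -0.35, not called, for Tm7sf2. Acat2 lies beside a near copy, Acat3, and its reads may be shared with it. Tm7sf2 values were 5.58 to 12.6 (median 6.63) in founder controls and 3.77 to 8.23 (median 5.15) with TM.

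The other 8 sterol genes were not called in either set. The mean changes over the strains were -0.0059 for Idi1, which isomerises the isoprene unit, -0.047 for Fdps, which joins isoprene units, -0.083 for Fdft1, squalene synthase, -0.028 for Cyp51, the lanosterol demethylase, -0.0086 for Ebp, a sterol isomerase, and -0.14 for Sc5d, a sterol desaturase. Limma adjusted p-values of these 6 ran from 0.143 to 0.951. Ggps1, which makes geranylgeranyl diphosphate for protein prenylation, stood at 0.21 (adjusted p 0.0289) and Pmvk, phosphomevalonate kinase, at -0.35 (adjusted p 0.0111). Idi1 ranged from 43.7 to 111 (median 76.4) in founder controls and from 36.8 to 108 (median 79.8) with TM, and the groups overlapped in all strains but 129, where TM values were the higher.

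Stard4, a carrier that moves cholesterol between membranes, was the 1 member that rose. Its controls were 68.5 and 70.3 in 129, 67.0, 75.4 and 80.1 in A, 34.3 and 31.5 in B6, 28.5 and 32.4 in CAST, 30.7 and 30.8 in NOD, 70.3 and 66.6 in NZO, 49.2, 52.6 and 53.2 in PWK and 25.4 and 32.8 in WSB. Its TM values were 85.6, 76.5 and 92.4 in 129, 109.99, 70.7 and 96.7 in A, 38.3 and 36.9 in B6, 30.02 and 31.0 in CAST, 38.1, 34.2 and 34.7 in NOD, 105, 101 and 73.9 in NZO, 53.2, 60.05 and 59.4 in PWK and 32.7, 28.5 and 22.3 in WSB. TM lay above control throughout in 5 of 8 strains (129, B6, NOD, NZO and PWK), and overlapped in A, CAST and WSB. The mean was 0.19 ± 0.057 (SE) (limma adjusted p 0.00638), and 0.17 (adjusted p 0.0183) without WSB control replicate 2. The call did not hold with edgeR on recovered reads, with the replicate block, or without any 1 of 12 libraries. Over the crosses Stard4 stood at 0.16 (adjusted p 0.096).

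**Figure D3:**
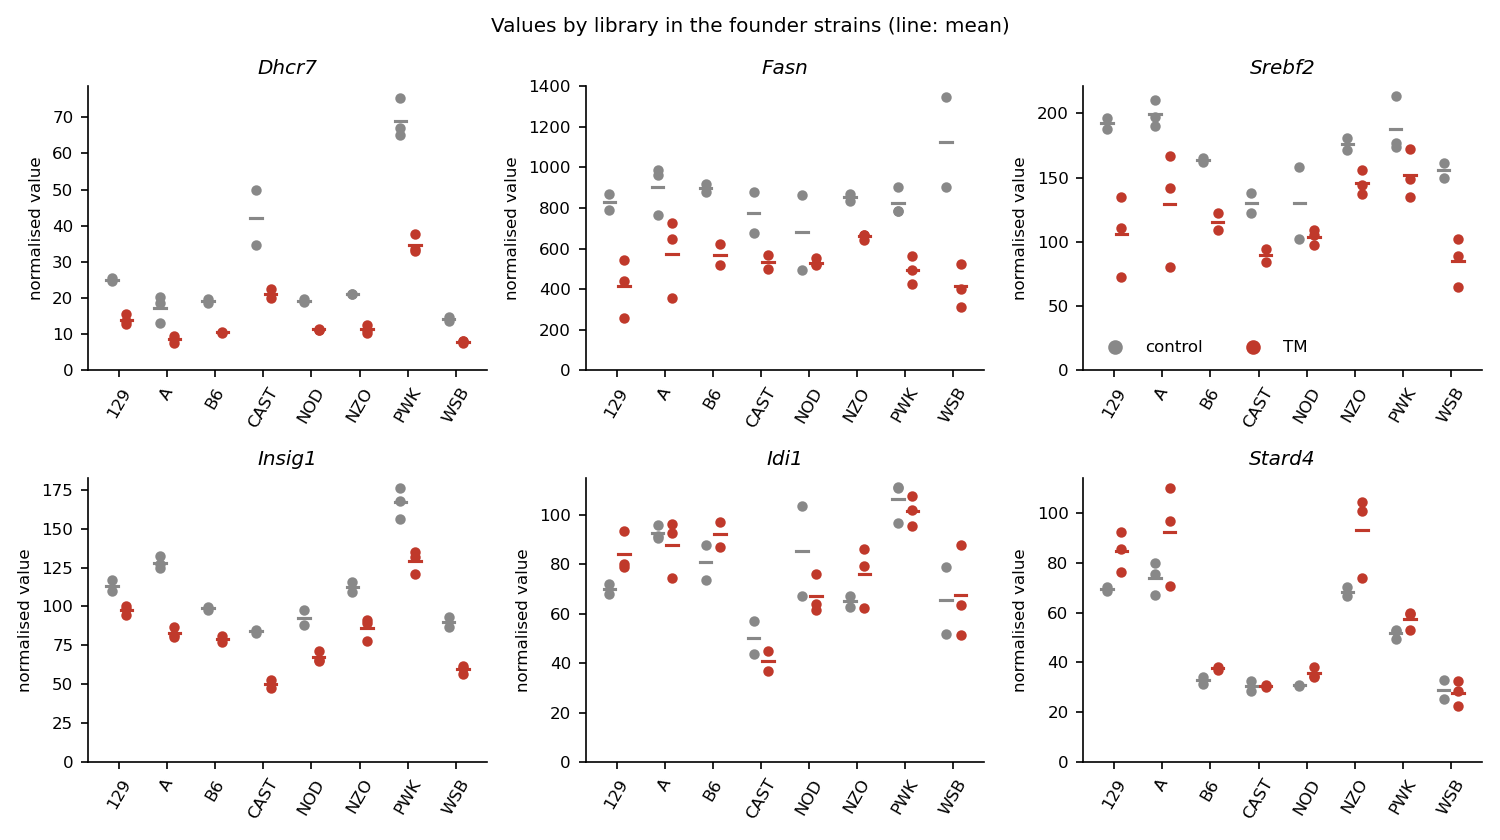
Normalised values of Dhcr7, Fasn, Srebf2, Insig1, Idi1 and Stard4 (y axes from 0) in each founder library by strain, controls in grey and TM in red, with a line at the mean. Dhcr7 and Insig1 TM values lie below control in every strain, while Idi1 values overlap in 7 of 8.

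Among the regulators, Srebf2, whose product mainly drives the sterol genes, fell. Srebf1, whose product mainly drives the fatty acid genes, was not called. These RNA levels do not measure the released part of either protein that enters the nucleus. Srebf2 controls (GRCm38 chr15:82147181-82205379, plus strand) had 188 and 197 in 129, 191, 197 and 211 in A, 162 and 166 in B6, 123 and 138 in CAST, 102 and 158 in NOD, 181 and 172 in NZO, 214, 174 and 177 in PWK and 162 and 149.8 in WSB. Srebf2 with TM had 73.1, 111 and 135 in 129, 142, 80.2 and 167 in A, 123 and 109 in B6, 84.5 and 94.6 in CAST, 105, 109 and 97.8 in NOD, 137, 144 and 156 in NZO, 135, 149 and 172 in PWK and 64.9, 89.1 and 102 in WSB. TM lay below control in 7 of 8 strains, all but NOD, and the TM libraries of 129 and A spread widely. Srebf2 changed by a mean of -0.55 ± 0.081 (SE) (limma adjusted p 1.39e-06), from -0.90 to -0.28 by strain, and by -0.55 in the crosses. Srebf1 controls had 139 and 139 in 129, 103, 88.9 and 98.4 in A, 108 and 117 in B6, 108 and 107 in CAST, 84.0 and 103 in NOD, 111 and 119.8 in NZO, 140.3, 124 and 114 in PWK and 137 and 101 in WSB. Srebf1 with TM had 135, 127 and 110.5 in 129, 78.8, 80.4 and 94.4 in A, 102 and 89.1 in B6, 103 and 97.6 in CAST, 89.9, 88.1 and 89.6 in NOD, 101, 101 and 125 in NZO, 118, 114 and 121 in PWK and 102, 128 and 116 in WSB. Its mean change was -0.12 ± 0.047 (SE) (adjusted p 0.0275), below 0 in 8 of 8 strains and with full separation in 3. The table does not part the SREBP-1a and SREBP-1c transcripts of Srebf1.

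Scap, the escort of the precursors, and Insig1, a sterol-regulated anchor that is itself an SREBP target, fell as means over the strains. Scap values in controls were 103 and 103 in 129, 76.8, 83.4 and 88.9 in A, 72.8 and 72.6 in B6, 87.1 and 97.1 in CAST, 74.3 and 93.0 in NOD, 87.2 and 86.0 in NZO, 91.9, 83.2 and 81.7 in PWK and 94.2 and 83.5 in WSB. With TM they were 66.0, 70.4 and 71.1 in 129, 68.5, 59.9 and 72.3 in A, 63.2 and 57.2 in B6, 70.2 and 74.2 in CAST, 67.9, 68.7 and 70.1 in NOD, 64.4, 67.3 and 70.4 in NZO, 70.3, 72.3 and 66.5 in PWK and 62.6, 70.8 and 74.5 in WSB. Scap TM values were below control in 8 of 8 strains, with a mean change of -0.35 ± 0.038 (SE) (limma adjusted p 5.55e-09). Insig1 in controls had 117 and 110.1 in 129, 127, 124 and 132 in A, 99.8 and 97.6 in B6, 83.0 and 85.2 in CAST, 97.9 and 87.8 in NOD, 116 and 109 in NZO, 168, 177 and 156 in PWK and 86.7 and 92.9 in WSB. Insig1 with TM had 94.7, 100.4 and 98.5 in 129, 86.6, 81.7 and 80.6 in A, 77.05 and 80.9 in B6, 52.8 and 47.6 in CAST, 71.3, 65.5 and 65.0 in NOD, 89.3, 91.5 and 78.1 in NZO, 132, 135 and 121 in PWK and 61.6, 60.3 and 56.4 in WSB. These too were fully separated in all 8 strains, with a mean of -0.46 ± 0.033 (SE) (adjusted p 6.26e-13) and a range from -0.75 in CAST to -0.21 in 129. In the crosses Scap changed by -0.33 and Insig1 by -0.37, and for both genes xWSB was the cross where TM and control overlapped.

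Insig2, the paralog of Insig1, was not called. Insig2 controls were 26.9 and 27.9 in 129, 17.7, 27.2 and 22.9 in A, 32.9 and 31.7 in B6, 31.3 and 29.5 in CAST, 30.9 and 26.6 in NOD, 27.4 and 28.6 in NZO, 33.9, 39.6 and 37.1 in PWK and 29.4 and 35.1 in WSB. With TM it was 33.7, 31.3 and 31.3 in 129, 24.1, 26.2 and 22.0 in A, 31.7 and 36.6 in B6, 36.5 and 32.5 in CAST, 31.2, 31.5 and 27.5 in NOD, 31.4, 26.1 and 22.5 in NZO, 44.1, 41.1 and 38.3 in PWK and 42.1, 30.2 and 31.0 in WSB. Its mean was 0.10 ± 0.055 (SE) (limma adjusted p 0.119) in the strains and 0.15 (adjusted p 0.0986) in the crosses, positive in 7 of 8 strains and in 4 of 5 crosses.

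Within single genotypes, with a call set at 1.5 fold or more and a limma adjusted p under 0.01, 10 members fell in at least 1 strain and 0 rose. Of all genes tested, 7.85% fell and 8.15% rose in at least 1 strain. No member had a rise of 1.5 fold at an unadjusted p below 0.05 in any strain or cross, by limma or by edgeR on recovered reads. Shares of all genes at that threshold are not given here. PWK had 8 of these calls (Mvk, Lss, Nsdhl, Dhcr7, Acly, Fasn, Elovl6 and Scd2), where 4.3% of genes fell. B6 had 4 (Dhcr7, Fasn, Elovl6 and Scd2; 3.22% of genes) and CAST had 2 (Dhcr7 and Insig1; 0.478%). WSB had 5 (Acly, Acaca, Fasn, Elovl6 and Scd2; 4.2%), and none of them was called without control replicate 2, a fit that leaves 1 control. The WSB change of Fasn was -1.45 with that library and -1.16 (adjusted p 0.023, limma) without it. In 129, A, NOD and NZO no member was called, and hardly any gene at all fell (0.00787%, 0.00786%, 0.165% and 0.0078% of genes). Dhcr7 changed there by -0.84, -0.98, -0.76 and -0.90.

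Among the crosses, 6 members fell in at least 1 and 0 rose, against 5.47% and 7.05% of genes. Dhcr7 fell in x129, xCAST and xNOD, Scd2 in xCAST and xNOD, Mvk in x129, and Acly, Fasn and Elovl6 in xNOD. Of all genes 1.36% fell in x129, 1.2% in xCAST, 0.152% in xNZO and 0.0161% in xWSB, and no member was called in the latter pair of crosses. The xNOD calls, where 4.6% of genes fell, were lost without any 1 of the 3 xNOD controls, leaving 3 members over the crosses. In each of those fits 0 of all genes tested were called as lower in xNOD. Fasn in xNOD changed by -1.45 with and -1.24 without control replicate 3 (limma adjusted p 0.0278 without it).

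**Figure D4:**
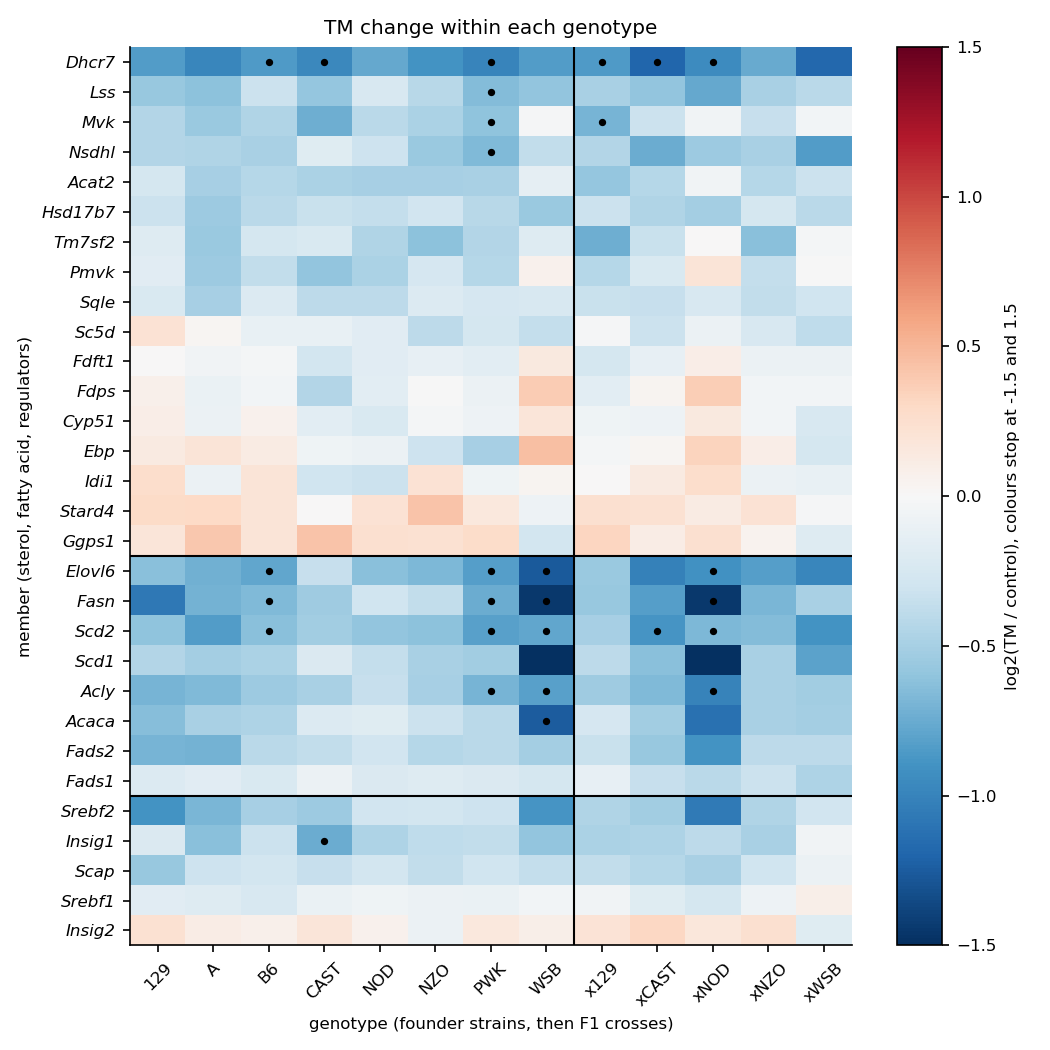
Log2(TM / control) of the 30 members (rows, by role) in the 8 founder strains and 5 F1 crosses (columns), blue for lower and red for higher with TM, and dots for changes called within a genotype. The fatty acid rows are blue in every column, with the darkest cells in WSB and xNOD (Scd1 -2.13 and -1.61, past the end of the scale), and Dhcr7 is blue throughout.

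Whether the TM change differed between genotypes was tested as a strain by TM interaction. No member passed an adjusted p of 0.01 in the strains or the crosses by limma or edgeR, where 0.174% and 0.0547% of all genes did by limma. At an unadjusted p below 0.05 there were 3 members in the strains and 0 in the crosses by limma, and 2 and 1 by edgeR. The share of all genes at that looser threshold is not given here, so these counts are not set against any share. The 5 with the smallest p in the strains were Insig1 (limma adjusted p 0.539), Ebp (0.933), Scd1, Fasn and Acaca (each 1). Ebp controls read 26.5 and 24.9 in 129, 19.5, 25.8 and 27.4 in A, 17.9 and 20.6 in B6, 20.2 and 18.5 in CAST, 27.2 and 21.7 in NOD, 22.3 and 20.6 in NZO, 26.8, 24.8 and 26.6 in PWK and 21.7 and 17.2 in WSB. Ebp with TM read 33.1, 29.3 and 22.9 in 129, 24.01, 39.8 and 21.5 in A, 19.5 and 22.4 in B6, 18.7 and 18.1 in CAST, 21.4, 23.0 and 24.02 in NOD, 18.4, 16.4 and 17.2 in NZO, 19.7, 18.6 and 16.9 in PWK and 29.0, 27.1 and 23.7 in WSB. Ebp changed by 0.45 in WSB, where TM lay above control, and by -0.50 in PWK, where TM lay below. Leaving out WSB control replicate 3, so that replicate 2 with its adipocyte markers was the only WSB control, brought Scd1 past the threshold (adjusted p 2.97e-05).

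Levels without TM differed between strains for many sterol genes. In the founder controls 17 of 30 members differed by strain (limma F test, adjusted p below 0.01), or 56.7%, where 35.8% of all genes did. They were 13 of 17 sterol genes, 3 of 8 fatty acid genes (Scd2, Fads1 and Fads2) and 1 of 5 regulators (Insig1). PWK had the highest mean of Dhcr7, Insig1, Lss, Cyp51, Sqle, Hsd17b7, Fdft1, Idi1, Tm7sf2 and Fads1, and CAST or WSB the lowest of these except Fads1, which was lowest in 129. PWK controls also had adipocyte marker sums of 39.8 to 46.4, against 7.21 to 26.4 in the other founder controls without WSB control replicate 2. The epithelial marker Krt8 was 20.4 to 24.0 in PWK controls, against at most 8.64 in those same other controls. Krt18, Krt19 and Cdh1 each reached higher control values in another strain. The part of all these markers in the levels was not tested. Without WSB control replicate 2 the count was 14, and without A control replicate 1 it was 21. In the F1 controls 8 of 30 differed (Stard4, Dhcr7, Pmvk, Elovl6, Lss, Insig1, Fads1 and Fads2), or 26.7%. This was near the 21.4% of all genes that did. By role they were 4 of 17 sterol genes (23.5%), 3 of 8 fatty acid genes and 1 of 5 regulators. The share of all genes called with 1 library left out is not given here, so counts from those fits are not set against it. The F1 count was 3 to 5 without x129 control replicate 1 or 2, xCAST control replicate 2 or 3 or xNZO control replicate 2, 14 without xWSB control replicate 1, and 8 without xNOD control replicate 3.

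Stard4 differed most clearly, at an adjusted p of 2.79e-07 (limma). Its control means were 74.2 ± 6.65 (SD, n = 3) in A, 69.4 ± 1.21 (n = 2) in 129, 68.4 ± 2.63 (n = 2) in NZO and 51.7 ± 2.14 (n = 3) in PWK. In B6, CAST, NOD and WSB they were 32.9 ± 2.00, 30.4 ± 2.75, 30.7 ± 0.0591 and 29.1 ± 5.20 (n = 2 each). The control values of A, 129 and NZO overlapped each other and lay above PWK, which lay above the other 4. Among these 4 B6 lay above NOD and the other pairs overlapped. In the crosses x129 (39.7 ± 2.17, n = 3) and xNZO (41.5 ± 4.45, n = 3) were higher than xCAST, xNOD and xWSB (means 25.5, 21.7 and 19.5).

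Dhcr7 was highest in PWK, at 69.0 ± 5.44 (SD, n = 3), then in CAST at 42.3 ± 10.6 (n = 2), and lay between 14.3 in WSB and 25.1 in 129 elsewhere (limma adjusted p 4.42e-07). With TM, PWK (33.7, 37.7 and 33.0) and CAST (20.0 and 22.5) stayed above the other strains, and their log2 changes were -0.99 and -0.97. Among the crosses xCAST stood out, with control values of 35.7 and 30.1, where the other 4 crosses had 12.2 to 16.4.

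Pmvk was low in CAST alone. Controls had Pmvk values of 27.4 and 26.9 in 129, 77.7, 32.4 and 33.7 in A, 26.5 and 25.8 in B6, 3.99 and 3.62 in CAST, 28.9 and 23.96 in NOD, 20.5 and 29.96 in NZO, 30.6, 28.2 and 27.8 in PWK and 20.4 and 23.8 in WSB. TM libraries had 33.2, 25.03 and 16.9 in 129, 22.4, 33.4 and 36.5 in A, 22.5 and 18.3 in B6, 2.56 and 2.41 in CAST, 16.6, 19.0 and 21.5 in NOD, 15.9, 15.4 and 36.8 in NZO, 23.2, 18.6 and 22.6 in PWK and 21.0, 20.0 and 28.8 in WSB. CAST lay below every other strain with either treatment (limma adjusted p 6.75e-06 over the controls). A control replicate 1 (77.7) lay far above replicates 2 and 3, and without it the adjusted p was 3.33e-09. xCAST was the lowest cross, at 10.9 and 8.49 against 12.4 to 26.6 in the other 4. Insig1 was highest in PWK, at 167 ± 10.3 (n = 3), and lowest in CAST, at 84.1 ± 1.56 (n = 2; adjusted p 6.17e-06), and Lss followed the same order at 82.8 ± 5.43 and 37.0 ± 2.47 (adjusted p 1.57e-05).

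**Figure D5:**
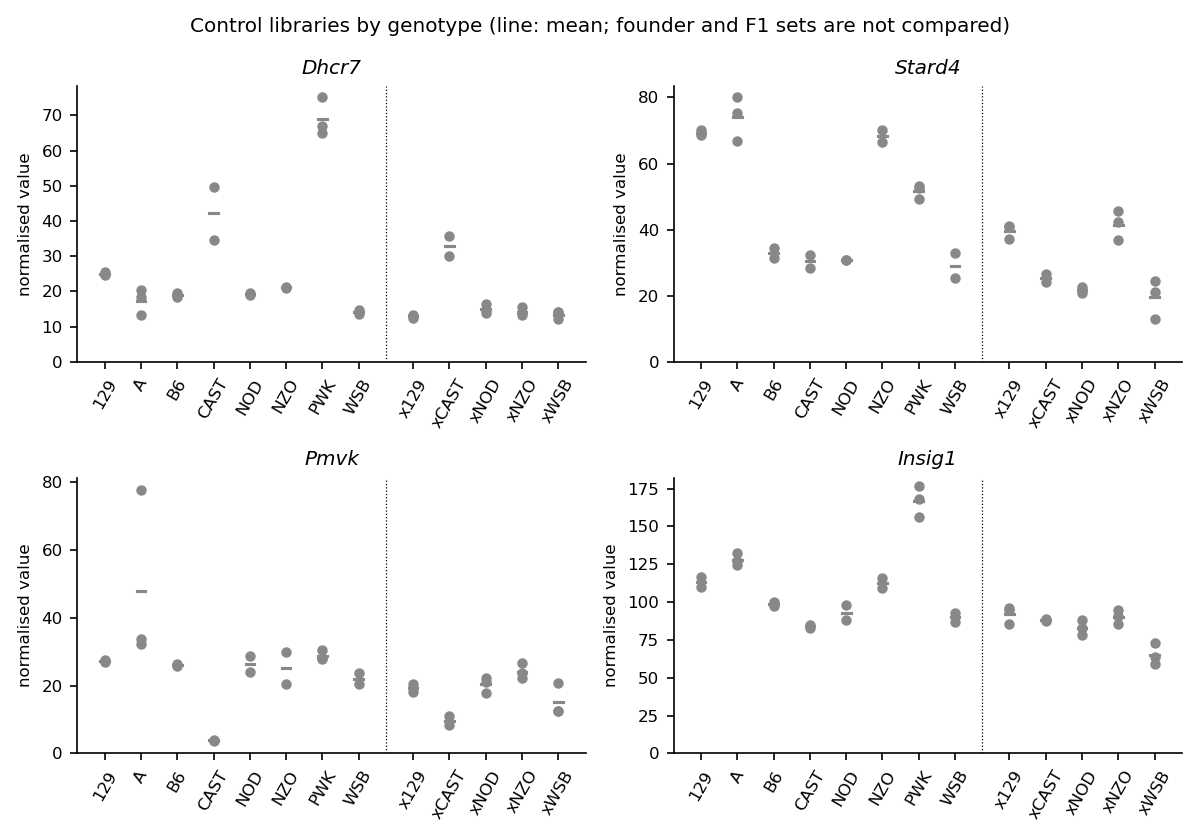
Normalised values of Dhcr7, Stard4, Pmvk and Insig1 (y axes from 0) in each control library by genotype, with a line at the mean, and a dotted line between the founder and F1 sets, which are not compared. PWK and CAST are highest for Dhcr7, A, 129 and NZO for Stard4, and CAST lowest for Pmvk (3.99 and 3.62).

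Beyond the 32 genes, 25 more genes of sterol and fatty acid metabolism were listed and all were measured. TM lowered 9 and raised 2 of them over the strains, and lowered 11 and raised 1 over the crosses. Over all genes 21.9% fell and 20.5% rose in the strains, and 18.7% and 16.9% in the crosses, beside 36% and 44% of these 25 that fell. Among those that fell over the strains were Acss2, which makes acetyl-CoA from acetate (-0.50), Abcg1, a sterol exporter (-0.48), Lpin1, a phosphatidate phosphatase (-0.44), Tecr, of fatty acid elongation (-0.34), Mylip, a ubiquitin ligase induced by sterols (-0.29), Nr1h2, the sterol receptor LXR beta (-0.28), and Mbtps1, the Golgi protease that cleaves SREBPs first (-0.20). Msmo1, a sterol methyl oxidase (0.25), and Soat1, which esterifies cholesterol (0.28), rose.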

How the data were processed

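RNA-seq values of 68 MEF libraries were taken from 13 deposited tables, 1 per genotype. Per the processing notes and methods, the authors checked and trimmed reads with FastQC and Trimmomatic, aligned them with TopHat 1.4.1 to strain-specific genomes built on GRCm38 (mm10), dropped libraries that clustered away from their condition, and scaled the rest by TMM in edgeR. Founder and F1 tables list different genes and were analysed apart. The deposited values, a normalised signal labelled FPKM by the authors, are scaled reads per gene, not divided by length. In all 68 libraries every value was a whole multiple of 1 step, within 0.05 of a step. Reads per gene were recovered in this way for 66 of them. PWK TM replicate 2 and WSB TM replicate 1 were not among these, so no depth is given for them and they were left out of edgeR. Whether counting used strand is not given in the sources used here.

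Members and gene lists were chosen with earlier results of these data known. Genes were matched by Ensembl identifier. Values were tested as log2(value + 0.1) with limma 3.58.1 (trended eBayes, R 4.3.3) on genes at 0.5 or more in at least 2 libraries of the fit, p-values two-sided and adjusted by Benjamini-Hochberg over all genes. Mean TM effects, interactions and control levels were fitted over a set with a term per genotype and treatment and called at an adjusted p below 0.01. Changes within a genotype were fitted on that genotype and called at an adjusted p below 0.01 and 1.5 fold. Changes of genes with low values are understated on the log2(value + 0.1) scale. Full values are given for the SREBP regulators, Sqle, Fasn and Scd1, the members called with the 5 most negative and up to 5 most positive mean changes, and those with the 5 smallest p for interaction and for control level. Alternatives were pseudocount 1, other filters, median-of-ratios scaling, a replicate block, limma without trend, array weights, an adjusted p of 0.05, 1 fit over a set, edgeR 4.0.16 quasi-likelihood on recovered reads, and leaving out each library. The fits were tested on simulated data. Same-numbered control and TM libraries of a genotype did not deviate together (29 pairs, r from -0.53 to 0.31, median 0.020), so numbers were not taken to pair samples. Some genes of the wider pathway list are not reported here.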

Additional observations from a re-analysis of the deposited data

How the results depend on the processing

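Over the strains and over the crosses the count of members that fell stayed within 1.5 times under every alternative run (17 to 21 of 30, with 21 over the strains and 19 over the crosses at an adjusted p of 0.05). The rise of Stard4 was the least stable call. With the replicate block it was 0.16 (limma adjusted p 0.138) and with edgeR 0.17 (adjusted p 0.0128), so that 0 members rose under either, 2 rose at an adjusted p of 0.05, and 0 to 2 rose with 1 library left out. It was lost without 129 control replicate 2, B6 control 3, B6 TM 1, CAST control 1, CAST TM 3, NOD control 3, NOD TM 1, NZO control 3, NZO TM 1, NZO TM 2, WSB control 2 or WSB TM 1, and Ggps1 rose as well without A TM 3 or at an adjusted p of 0.05. Ebp, never called, changed sign (-0.042 to 0.013) with 1 library left out, and Pmvk was called with median-of-ratios scaling (-0.36, adjusted p 0.00945). Within strains 6 members fell without the trended prior, and 9 to 12 with 1 library left out, while 0 or 1 rose, the 1 being Stard4 in NZO without TM replicate 3. Within crosses the count that fell was 10 with the replicate block, 1 without the trended prior, 11 in 1 fit over the set, 12 at an adjusted p of 0.05, and 3 to 11 with 1 library left out. The replicate block changed no other call count by over 1.5 times, pairs libraries that share only a number, and could not be fitted within B6 and CAST, which have no residual degrees of freedom under it. Control levels differed between strains for 26 members with array weights and 13 to 21 with 1 library left out. Between crosses the count was 5 without the trended prior, 18 with array weights, 14 at an adjusted p of 0.05, and 3 to 14 with 1 library left out. Interactions numbered 0, or 1 (Scd1) without WSB control replicate 3. Where 1 library was left in an arm, it is assumed to vary like the rest. The causes of these shifts were not tested. Shares of all genes called under these alternatives are not given here, so the member counts are not set against calls over all genes. With 2 or 3 libraries an arm, small changes in a single genotype may go undetected.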
